A study of Mus musculus with 24 samples.

Results

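Ribosome-associated mRNA of cholinergic cells was compared between C201R mice and wild type in 12 spinal cord pulldowns, 6 of each genotype, out of 24 libraries in the series. They were chosen by label: source names C201R and WT, both with Cre. The other 12 libraries are pulldowns from mice without Cre and serve as the background. In the RiboTag method a Cre-dependent epitope tag on the ribosomal protein Rpl22 lets an antibody collect ribosomes, with the mRNA on them, from the cells in which Cre was active. All mice in both groups carried the tagged Rpl22 allele (Rpl+/-) and the ChAT-Cre allele (Chat+/-), were 8 weeks old, and were on the background given as B6.CgxB6.129. The C201R group carried the Gars mutation on 1 allele (C201R+/-, GarsC201R/+), and the WT group carried Gars+/+. The mice without Cre were labelled Chat+/+. Cre follows the choline acetyltransferase locus, so every cholinergic cell type of the spinal cord contributes, not motor neurons alone. Each library came from a mouse with a number of its own, so the p-values measure the spread between mice.

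Gars encodes glycyl-tRNA synthetase, the enzyme that joins glycine to its tRNA, and dominant mutations in it cause a form of Charcot-Marie-Tooth disease in which peripheral axons fail. Motor neurons have very long axons and depend on RNA-binding proteins, ion channels and adhesion proteins to build and use them. A pulldown of tagged ribosomes measures mRNA bound to ribosomes, so mRNA abundance and ribosome loading cannot be told apart in it, nor can fewer cells of a type and less RNA per cell.

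The 12 libraries held 12.1 to 28.3 M (mega) expected counts, and 14634 of 38924 listed genes passed the filter on low counts. With Cre, edgeR called 335 genes higher (2.29% of those tested) and 266 lower (1.82%) in C201R, together 4.11%, at a Benjamini-Hochberg adjusted p under 0.05. Scaled by library totals in place of TMM the calls were 24 and 8, and the median log2 change of all genes moved from -0.01 to -0.26, so changes are given relative to the bulk of genes. In all, 60 of the higher genes and 1 of the lower genes, Cryab, belonged to the lists of stress response genes (ATF4 targets, cytosolic tRNA synthetases, endoplasmic reticulum and heat shock chaperones, p53 targets). The values below are for called genes outside those lists. Gars itself had a median of 183 CPM (counts per M, library sizes scaled by TMM) in C201R and 110 in WT, with no overlap between the groups. Its mRNA is made from both alleles, so this does not check the genotype label. Chat, the marker of the tagged cells, ranged from 59.4 to 147 CPM in C201R and from 60.9 to 73.7 CPM in WT, and its adjusted p was 0.51. With all 24 libraries scaled together its means were 73.6 CPM in C201R and 57.7 CPM in WT with Cre, and 1.91 and 4.29 CPM without Cre. Of the 15 cholinergic and motor neuron markers, 4 were called lower (Calca -1.47, Chodl -1.02, Calcb -0.88 and Ahnak2 -0.85 on the log2 scale) and 0 higher, with a median of -0.15. They summed to 4281 to 6586 CPM in C201R and 4889 to 6965 CPM in WT with Cre, and to 466 to 710 and 516 to 1949 CPM without Cre. The sums overlapped between the genotypes both with and without Cre. Without Cre the median sum was 654 CPM in C201R and 902 CPM in WT, so estimates below WT were seen there too. Without Cre the 13 measured markers had a median log2 change of -0.90 between the genotypes (Calca -2.12, Calcb -1.02). As 0 genes were called there, a genotype difference without Cre was not established.

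4 of the 12 libraries stood apart from their group and bear on what follows. In WT mouse 14701-9 mitochondrial transcripts took 17.1% of counts and Gm26924, to which reads of ribosomal RNA are commonly assigned, took 30.8%. In the other 5 WT libraries these shares were 1.24 to 3.67% and 7.45 to 11.9%. In C201R mice 14004-2 and 14004-5 the Gm26924 share was 10.5% and 8.01%, against 20.9 to 43.3% in the other 4 C201R libraries. C201R mouse 14003-1 had a mitochondrial share of 15.8%, against 3.03 to 6.45% in the other 5. Without mice 14003-1 and 14701-9, 954 genes were called higher (6.5%) and 996 lower (6.79%), with 334 of the 335 and 266 of the 266 among them. Without mice 14004-2 and 14004-5, 355 were called higher and 173 lower. Leaving out 1 library gave from 110 higher and 60 lower (without C201R mouse 14703-4) to 502 and 434 (without C201R mouse 14003-1). Library numbers fall into 2 runs, called series 1 (3 C201R and 2 WT) and series 2 (3 C201R and 4 WT), and the fit holds a term for them.

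The higher genes outside the stress lists were led by Clic4, which encodes a chloride intracellular channel protein that also acts in trafficking. Clic4 had a lowest, median and highest value of 106, 132 and 153 CPM in C201R, and of 20.8, 30.8 and 40 CPM in WT. Every C201R library was more than 2-fold above every WT library. The log2 change was 2.15 ± 0.17 (SE, n = 6 and 6, edgeR adjusted p = 4.95e-06). Ddr2, a receptor tyrosine kinase for collagen, had 13.2, 18.5 and 22.3 CPM in C201R and 1.83, 2.64 and 3.45 CPM in WT, a log2 change of 2.73 ± 0.23 (edgeR adjusted p = 8.65e-06). Cyb5r1, a cytochrome b5 reductase, had 47.2, 55.1 and 74.2 CPM in C201R and 15.3, 17 and 18.7 CPM in WT. The groups of Ddr2 and Cyb5r1 did not overlap either. Over all genes tested 1.72% had all 6 C201R libraries above all 6 WT ones.

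Secreted and matrix proteins were among these genes. Serpinf1, a secreted serpin known as pigment epithelium-derived factor, had 34.3, 42.3 and 73.0 CPM in C201R and 8.37, 10.4 and 12 CPM in WT (log2 change 2.14 ± 0.20, edgeR adjusted p = 2.28e-05). Fbln5, an elastic fibre protein, had 8.85, 11 and 15.4 CPM against 2.42, 3.22 and 4.21 CPM. In both, the lowest C201R library stood above the highest WT library. Of 66 extracellular matrix genes in a separate list none was called, and their median log2 change was -0.09.

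Arhgef2, an exchange factor that activates RhoA and binds microtubules, had 15.2, 19 and 24.9 CPM in C201R and 2.32, 4.00 and 9.91 CPM in WT, with a log2 change of 2.07 ± 0.26 (edgeR adjusted p = 3.6e-04). The highest WT value was that of mouse 14701-9. Chchd10, a protein of the mitochondrial intermembrane space that is mutated in some motor neuron disease, had 92.3, 184 and 266 CPM in C201R and 41.8, 59.6 and 81.2 CPM in WT. Its lowest C201R values were those of mice 14004-2 and 14004-5, yet the groups did not overlap. Tcea1, a transcription elongation factor, and Zcchc12, a zinc finger protein, rose by 0.96 and 1.17 on the log2 scale, without overlap between the groups.

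A few higher genes were close to absent in WT. Cass4, a scaffold protein of the p130Cas family, had 688 counts over the 6 C201R libraries and 2 over the 6 WT libraries, a ratio per scaled total of 493 with a counting interval of 136 to 4080 (95%, exact binomial, counting error only). It ranged from 3.02 to 18.4 CPM in C201R and from 0 to 0.039 CPM in WT. Cox6a2, the heart and muscle form of a cytochrome c oxidase subunit, had 839 counts against 12, and Cdsn, an adhesion protein known from skin, had 862 against 24. Mouse 14701-9 gave 10 of the 12 WT counts of Cox6a2 and 10 of the 24 of Cdsn and stood at 1.17 CPM for each gene, while the WT medians were 0.014 and 0.11 CPM. In these genes every C201R library stood above every WT library, 14701-9 included.

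Some of the higher genes were also abundant in the pulldowns without Cre. With the 24 libraries scaled together, Clic4 had means of 108 CPM in C201R and 24.4 CPM in WT with Cre, and of 93.0 and 78.9 CPM without Cre. Ddr2 had 15.1 and 2.30 CPM with Cre and 17.1 and 11.7 CPM without Cre. Serpinf1, by contrast, had 38.7 and 8.81 CPM with Cre and 8.39 and 6.57 CPM without, and Cyb5r1 47.1 and 14.2 CPM with and 3.60 and 5.57 CPM without. Summed markers of glia gave no separation of the genotypes with Cre: the 12 oligodendrocyte markers summed to 584 to 862 CPM in C201R and 517 to 1143 CPM in WT, the 12 astrocyte markers to 690 to 980 and 662 to 1026 CPM, and the 12 measured microglia markers to 24.2 to 46.0 and 13.8 to 45.1 CPM. The 13 measured markers of other spinal neurons summed to 249 to 707 CPM in C201R and 193 to 442 CPM in WT, and the 7 blood cell markers to 23 to 492 and 26.7 to 188 CPM. The 10 fibroblast, meningeal and Schwann cell markers summed to 193 to 305 CPM in C201R and 342 to 495 CPM in WT, without overlap, and Dcn and Pmp22 of that list were called lower. No measured member of these lists was at 0 over a group. The part of other cells in the changes of single genes was not tested.

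**Figure D1:**
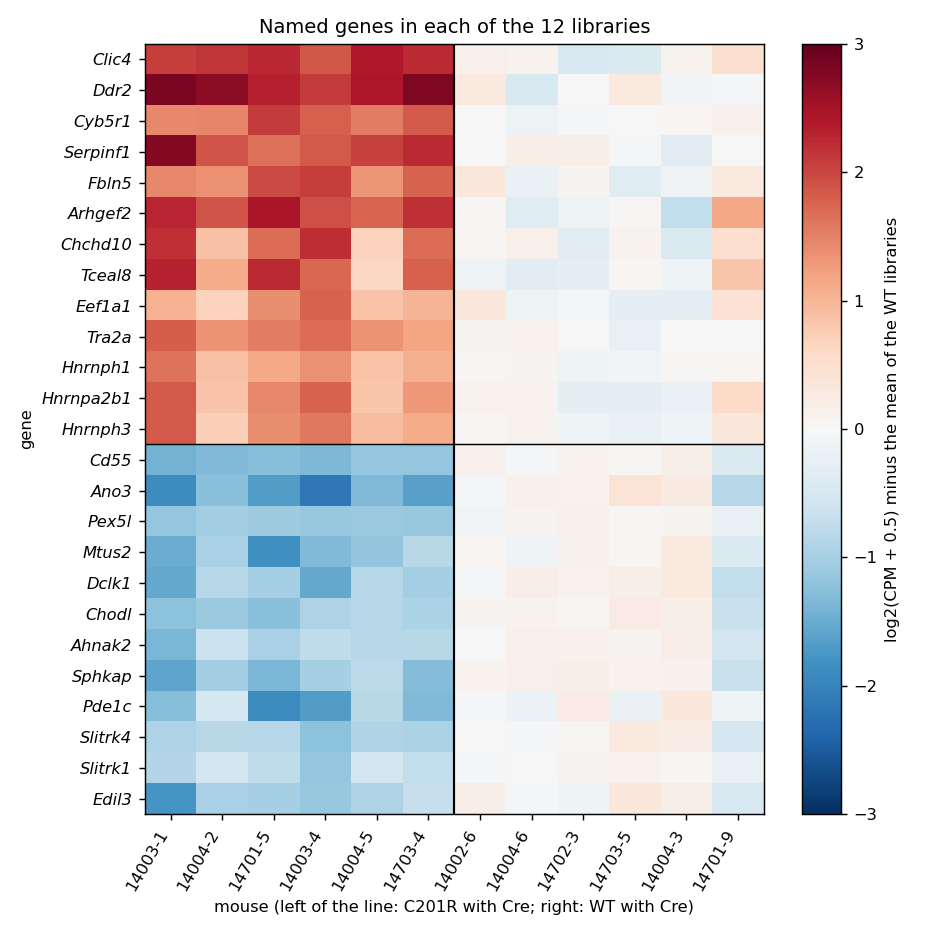
Levels of 25 named genes (rows) in each of the 12 libraries with Cre (columns, named by mouse), as log2(CPM + 0.5) minus the mean of the 6 WT libraries. Genes above the horizontal line were called higher and those below it lower in C201R. Mouse 14701-9, at the far right, is pale red or blue in the same direction as C201R for many genes, such as Arhgef2 (9.91 CPM) and Dclk1 (343 CPM).

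Some of the called genes, higher and lower, carry near their start the letters of the composite element that ATF4 binds with C/EBP factors. The motif TGATGNAA was searched on both strands in RefSeq promoters (build GRCm38.p6, 250 bases before to 50 after each annotated start), and 10942 of the 14634 tested genes matched a promoter by symbol. It stood in 14 of 46 matched higher genes of the stress lists (30.4%), in 11 of 208 higher genes outside them (5.29%), in 10 of 197 lower genes (5.08%) and in 301 of all 10942 (2.75%). Outside the stress lists the share was thus alike in higher and lower genes. Of 27 matched hnRNP genes 1 had the motif (3.70%). Over all 32851 promoters of the table the share was 3.97%. The windows of 4 of the 11 are shown because these genes are described here and the motif lies before the start. That of Arhgef2 (TGATGAAA), which lies after the start, is not shown. In the windows the motif is in capitals and each window is written 5′ to 3′ on the gene's strand. They lie at chr11:75422617-75422684 (Serpinf1, minus strand), chr6:51469986-51470053 (Hnrnpa2b1, minus strand), chr12:101818571-101818638 (Fbln5, minus strand) and chr10:75933015-75933082 (Chchd10, plus strand), the last with 2 copies.
Serpinf1: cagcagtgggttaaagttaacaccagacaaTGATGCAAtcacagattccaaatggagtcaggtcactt
Hnrnpa2b1: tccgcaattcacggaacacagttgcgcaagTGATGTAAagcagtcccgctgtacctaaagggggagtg
Fbln5: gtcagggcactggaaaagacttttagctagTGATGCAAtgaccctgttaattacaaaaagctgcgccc
Chchd10: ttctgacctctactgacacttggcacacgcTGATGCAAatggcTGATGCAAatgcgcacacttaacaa
A match describes the letters in the window and does not show that a factor binds there.

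Among classes outside the stress lists, hnRNP genes had the most calls in 1 direction. These proteins coat nascent RNA and steer its splicing, transport and translation. Of 31 tested, 11 rose, 0 fell and 20 were not called. Their median log2 change was 0.38, against 2.29% higher and a median of -0.01 over all genes tested. Hnrnpa2b1, which also carries mRNA along processes, had a lowest, median and highest value of 518, 750 and 1041 CPM in C201R and of 235, 280 and 432 CPM in WT (log2 change 1.24 ± 0.14, edgeR adjusted p = 1.2e-04). Hnrnph1 had 315, 372 and 536 CPM in C201R and 158, 179 and 183 CPM in WT (1.11 ± 0.12). In both genes every C201R library stood above every WT library, and the highest WT value of Hnrnpa2b1 was again that of mouse 14701-9. Hnrnph3, Hnrnpa1, Hnrnpdl and Hnrnpa3 rose by 1.2, 1.16, 1.09 and 0.80, and Hnrnpk and Hnrnpab by 0.64 and 0.56, all without overlap.

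Ewsr1 and Tardbp were also called and overlapped between the groups. Tardbp encodes an RNA-binding protein that is mutated in amyotrophic lateral sclerosis, and it had 125, 185 and 258 CPM in C201R and 99.8, 107 and 144 CPM in WT. Of the members that were not called, Hnrnpc had 110, 129.9 and 201.2 CPM in C201R and 106, 108 and 128 CPM in WT, and its adjusted p was 0.33. Syncrip and Hnrnpul1 were the only members with a negative estimate (-0.16 and -0.05), and neither was called.

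**Figure D2:**
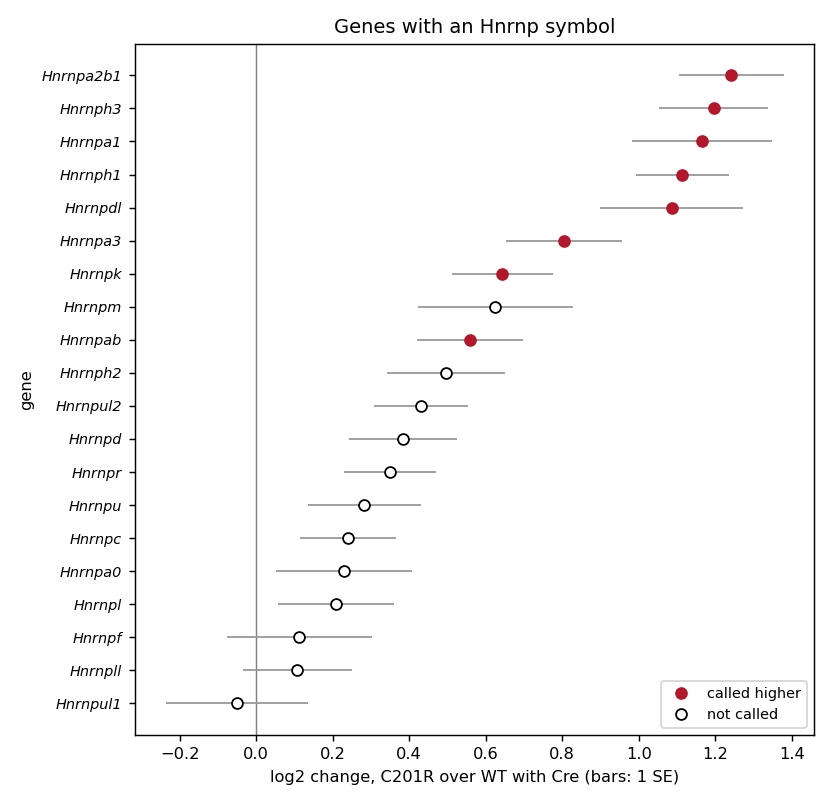
Log2 change between C201R and WT with Cre for the 20 tested family members with an Hnrnp symbol (rows, ordered by change), with bars of 1 standard error. Filled points are the 8 of them called higher by edgeR, from 0.56 (Hnrnpab) to 1.24 (Hnrnpa2b1), and open points the 12 not called.

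In fits that each left out 1 library, 6 (without WT mouse 14002-6) to 13 hnRNP genes were called higher and 0 lower, and without mice 14003-1 and 14701-9 it was 14 and 0, where 6.5% of all genes were called higher. With the Gm26924 share of each library as a term, 4 of the 11 (Hnrnph1, Hnrnpa2b1, Hnrnph3 and Hnrnpa1) were called, with a median of 0.25 for the family, where 0.608% of all genes were called higher. The median was 0.63 in series 1 and 0.34 in series 2, and -0.04 between the genotypes without Cre, where 0 genes of 14400 were called by edgeR (455 at an unadjusted p under 0.05).

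SR proteins and their relatives, which bind splicing enhancers, had 4 higher and 0 lower of 24, with a median of 0.27. Tra2a had the smallest p among them: its values were 84.1, 101 and 131 CPM in C201R and 31.4, 37.1 and 39.7 CPM in WT (log2 change 1.46 ± 0.12, edgeR adjusted p = 8.65e-06). The related Tra2b rose by 0.77, Srsf1 by 0.64 and Srsf5 by 0.68. Of 48 spliceosome core genes, 3 were higher (U2af1, Snrpb2 and Sf3b3) and 1 lower (Lsm11, a U7 snRNP protein that acts in histone mRNA processing), with a median of 0.25. Over all genes tested 2.29% were called higher in the main fit. The SR count was 1 without WT mouse 14002-6, where only 138 of all 14894 genes tested were called higher. It was also 1 with the Gm26924 share as a term, where 0.608% of all genes were called higher.

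Among translation factors Eef1a1, the elongation factor 1 alpha form that mature neurons and muscle largely replace by Eef1a2, had 218, 276 and 460 CPM in C201R and 110, 125 and 182 CPM in WT (log2 change 1.06 ± 0.13). Without Cre its means were 249 and 242 CPM. Eif5a2 fell by 0.75 on the log2 scale while Eef1b2 rose by 0.57. Of the 12 tested genes of the TRiC chaperonin and prefoldin, which fold actin and tubulin, all had positive estimates, with a median of 0.38, but only Pfdn4 and Pfdn5 were called. Of 47 proteasome genes 0 were called.

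Of 27 histone genes tested, H2afz (0.61), H2afv (1.2) and H1fx (1.79) rose, Hist1h2bc (-0.80) and Hist1h1c (-0.97) fell, and 22 were not called. Of 33 sodium and calcium channel genes tested, 3 rose and 2 fell (Cacna1a and Scn4b). The auxiliary subunit Cacna2d1, which is raised in injured sensory neurons, rose by 0.75 and Scn2b by 0.78, both without overlap. Cacng3 rose by 0.93 with overlap, and its log2 change between the genotypes without Cre was 0.95, not called. Over all genes tested 2.29% were called higher and 1.82% lower. Gsg1l, an auxiliary subunit of AMPA receptors, rose by 1.02. Of secreted signalling genes, 5 of 41 were higher and 2 lower, among them Vegfa, an angiogenic factor with known trophic action on motor neurons. Vegfa had 17.1, 25 and 27.7 CPM in C201R and 8.24, 11 and 13 CPM in WT (log2 change 1.09 ± 0.18, edgeR adjusted p = 0.0029). The 2 lower ones were Calca and Calcb.

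**Figure D3:**
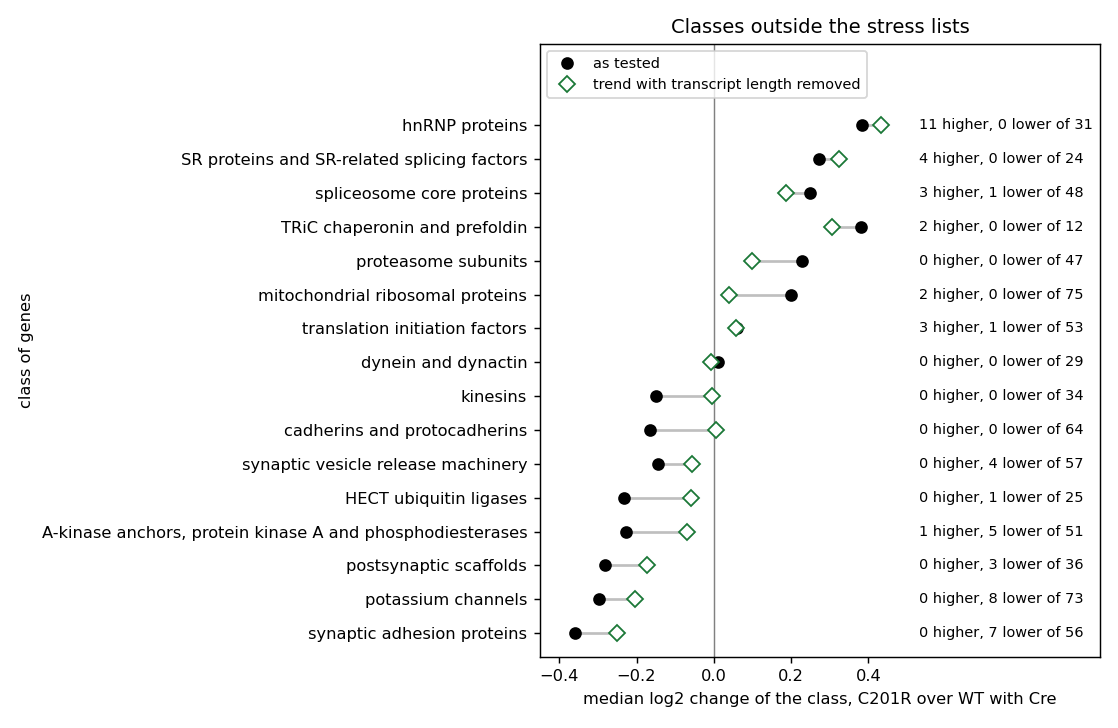
Median log2 change of 16 gene classes between C201R and WT with Cre, as tested (filled circles) and after the trend with transcript length was removed from each library (open diamonds), with the number of genes called at the right. The hnRNP median is 0.38 and 0.43, and that of synaptic adhesion genes -0.36 and -0.25.

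Of the 266 lower genes, 179 belonged to none of the gene lists. After Cd24a, a surface glycoprotein, the smallest p-values belonged to Pex5l, Cd55 and Ano3. Pex5l, which binds the tail of HCN pacemaker channels, had 43.3, 44.7 and 47.6 CPM in C201R and 83.5, 102 and 107 CPM in WT (log2 change -1.10 ± 0.11, edgeR adjusted p = 4.4e-05). Its 6 C201R values lay close together, and WT mouse 14701-9 was the lowest WT library. Cd55, a regulator that protects cells from complement, had 31.4, 34.0 and 37.6 CPM in C201R and 62.5, 88.7 and 95.4 CPM in WT (-1.27 ± 0.13). Ano3, a member of the anoctamin family that affects neuronal excitability, had 16.9, 24 and 31.8 CPM in C201R and 42.0, 83.1 and 103 CPM in WT (-1.59 ± 0.16). In each of these genes the groups did not overlap, as for 1.34% of all genes tested, and the lowest WT value came from mouse 14701-9.

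Of 43 microtubule-associated proteins and stathmins, 3 fell (Dclk1, Mtus2 and Map1b) and 2 rose (Stmn3 by 0.75 and Map4 by 0.44), with a median of -0.10. Dclk1, a microtubule-associated kinase, had 199, 287 and 321 CPM in C201R and 343, 636 and 710 CPM in WT, and Mtus2, a microtubule tip protein, 14.6, 22 and 29.8 CPM and 39.9, 55.5 and 65.5 CPM. Sphkap, which anchors protein kinase A at junctions between the endoplasmic reticulum and the plasma membrane, had 25.6, 34.1 and 44.4 CPM in C201R and 48.4, 83.8 and 87.0 CPM in WT. None of these 3 overlapped, and mouse 14701-9 was the lowest WT library in each. Of 51 genes for A-kinase anchors, protein kinase A and phosphodiesterases, 5 fell (Sphkap, Pde1c, Akap6, Pde7b and Pde6b) and 1 rose (Akap17b), with a median of -0.23. Over all genes tested 1.82% were called lower. With the Gm26924 share as a term 2 of the 51 were lower and their median was -0.05, where 0.226% of all genes were called lower. Pde1c, which breaks down cyclic nucleotides under control of calmodulin, had 13.2, 20.3 and 35.1 CPM in C201R and 44.2, 47.5 and 63.4 CPM in WT, and there mouse 14701-9 stood at 46.1 CPM, among the other WT libraries.

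Synaptic adhesion proteins join the membranes on both sides of a synapse. Of 56 tested, 7 fell, 0 rose and 49 were not called, where 1.82% of all genes were called lower. The median was -0.36 and 43 estimates lay below 0. With the Gm26924 share as a term the median was -0.13 and 2 were lower, where 0.226% of all genes were called lower. Slitrk4 had 61.4, 76.3 and 81.0 CPM in C201R and 102, 145 and 175 CPM in WT (log2 change -0.92 ± 0.13, edgeR adjusted p = 0.0010). Slitrk1 had 70.0, 93.1 and 108 CPM in C201R and 134, 161 and 168 CPM in WT (-0.73 ± 0.11). Neither overlapped. The teneurin Tenm1 fell by 0.72, also without overlap, and Lrrtm1, Ntng2, Nlgn2 and Lrrc4c, which organise excitatory or inhibitory contacts, fell by 1.28, 0.78, 0.90 and 0.82 with overlap. In fits without 1 library 3 (without WT mouse 14002-6) to 13 of these genes were lower and 0 higher, and without mice 14003-1 and 14701-9 it was 24 and 0, where 6.79% of all genes were called lower.

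Potassium channels set resting potential and firing rate. Of 73 channel genes and auxiliary subunits, 8 fell and 0 rose, with a median of -0.30, where 1.82% of all genes were called lower. With the Gm26924 share as a term the median was -0.14 and 0 were called, where 0.226% of all genes were called lower. Kcnq5 had 4.14, 6.23 and 9.12 CPM in C201R and 9.76, 13.5 and 18.4 CPM in WT, and Kcnab1, a beta subunit, 60.9, 74.6 and 76.9 CPM and 93.6, 111 and 131 CPM. Neither gene overlapped between the groups, whereas Kcna1, an axonal subunit, did (134 to 428 CPM and 281 to 594 CPM). Kcng1, Kcnh5, Kcnd1 and Kcnip1 were also called, with log2 changes from -1.38 to -0.76. Without C201R mouse 14703-4 no potassium channel gene was called, where only 60 of all 14926 genes tested were called lower. Without mice 14003-1 and 14701-9 there were 20 lower and 0 higher, where 6.79% of all genes were called lower.

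Other lower genes came from classes with few calls. Of 36 postsynaptic scaffold genes, the ankyrin genes Ank2 and Ank3 and the kinase gene Camk2g fell, and of 57 genes of the vesicle release machinery, Rab3b, the active zone gene Pclo, Nsf and Stxbp5l fell. Edil3, an integrin-binding secreted protein, had 62.1, 108 and 131 CPM in C201R and 153, 221 and 264 CPM in WT (log2 change -1.03 ± 0.16, edgeR adjusted p = 0.0023). Mest, an imprinted gene of the hydrolase family, fell by 1.67 without overlap. Pde6b, known as the rod phosphodiesterase, had 0 to 2.98 CPM in C201R and 3.27 to 6.75 CPM in WT (-2.35 ± 0.61), the second largest fall among the named genes after Rgs11, a regulator of G protein signalling (-2.44 ± 0.37). Pde6b was called in 3 of 12 fits without 1 library, with an adjusted p of up to 0.14. The kinesin, cadherin, integrin, lysosome, cholesterol synthesis and Hox lists held 0 called genes.

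The size of the change depended on transcript length. RSEM reports a length per gene, the average of its isoforms weighted by their abundance, and the tested genes were split into 5 equal groups by it. The median log2 change was 0.23 in the shortest group (median length 1.00 kb), 0.07 in the next, -0.01 in the middle one (2.51 kb), -0.09 in the fourth, and -0.17 in the longest group (5.25 kb). In the same order 4.58%, 2.97%, 1.85%, 1.16% and 0.89% of genes were called higher, and 0.51%, 0.99%, 1.50%, 2.02% and 4.07% lower. The shortest and longest hundredths had medians of 0.56 and -0.32. Called genes had a median length of 1.67 kb when higher and 3.74 kb when lower. Without ribosomal protein, respiratory chain and histone genes, which are short, the median of the shortest group was still 0.21.

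The trend was a property of libraries, and it did not separate them cleanly by genotype. For each library, the median deviation of the longest group minus that of the shortest group was taken after subtracting each gene's mean. In C201R it was -0.67 in mouse 14003-1, 0.25 in 14004-2, -0.29 in 14701-5, -0.88 in 14003-4, 0.21 in 14004-5 and -0.18 in 14703-4. In WT it was 0.17 in 14002-6, 0.36 in 14004-6, 0.43 in 14702-3, 0.25 in 14703-5, 0.39 in 14004-3 and -0.23 in 14701-9. Thus 14004-2 and 14004-5 lay among the WT libraries, and 14701-9 lay among the C201R libraries. The means were -0.26 ± 0.46 in C201R and 0.23 ± 0.25 in WT (SD, n = 6 each), a difference of -0.49 (exact two-sided permutation p = 0.041, smallest possible 0.0022).

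When genotype labels were permuted inside each library series, the series-adjusted difference was -0.40 (exact permutation p = 0.0086). In series 2 alone it was -0.26 (exact p = 0.057) and in series 1 alone -0.58 (exact p = 0.20), where 3 against 2 libraries cannot go below 0.10. Without 1 library the difference ran from -0.36 to -0.59, and its exact permutation p stayed under 0.05 only without C201R mouse 14004-2, C201R mouse 14004-5 or WT mouse 14701-9 and ran up to 0.082. The 5 libraries with a negative value were also the 5 with the highest Gm26924 share, 20.9 to 43.3%, while the other 7 had 7.45 to 11.9%. The part of this share in the difference was not tested. Without Cre, where shares were 1.60 to 7.60%, the same measure differed between the genotypes by -0.04 (exact permutation p = 0.70).

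**Figure D4:**
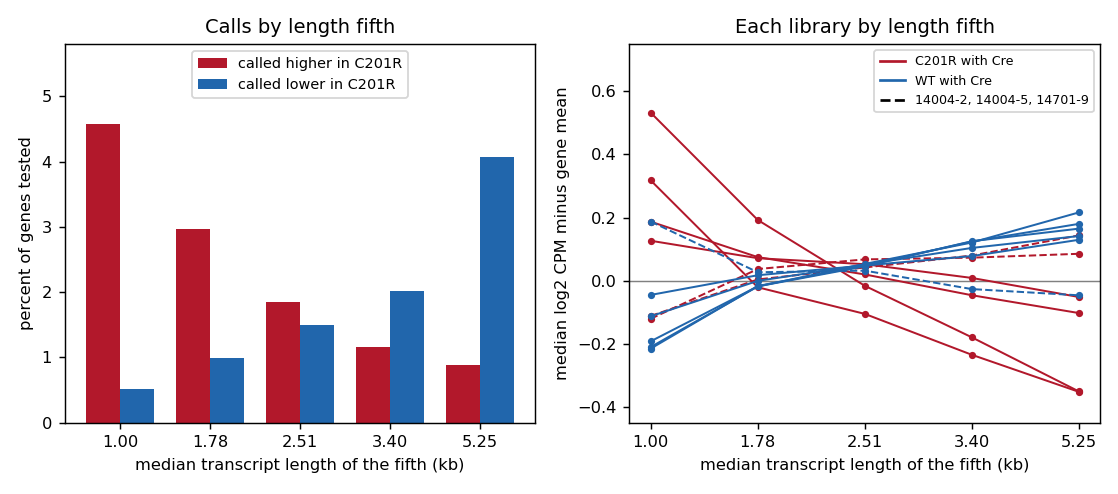
Left: percent of tested genes called higher or lower in C201R in each of 5 length groups. Right: for each library, the median log2 CPM of each length group after subtracting each gene's mean, with dashed lines for C201R mice 14004-2 and 14004-5 and WT mouse 14701-9. Calls of lower genes run from 0.51% in the shortest to 4.07% in the longest group.

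Removing each library's trend with length, a step chosen after seeing the data, left 286 higher (1.95%) and 204 lower (1.39%) calls, among them 243 of the 335 higher and 165 of the 266 lower genes. The classes moved unequally. The hnRNP median was 0.43 with 11 higher genes, the synaptic adhesion median -0.25 with 7 lower, and the potassium channel median -0.20 with 6 lower. By contrast the medians of mitochondrial ribosomal proteins (0.20 to 0.04), cadherins and protocadherins (-0.17 to 0.01) and HECT ubiquitin ligases (-0.23 to -0.06) came close to 0. Long genes that rose went against the trend: Ddr2 (7.45 kb), Fbln5 (5.83 kb) and Clic4 (4.08 kb) had log2 changes of 2.99, 1.97 and 2.29 once it was removed. Short genes that fell did so too: Calca (0.99 kb) had -1.47 as tested and -1.67 with the trend removed, and Rab3b (1.17 kb) -0.59 and -0.71. Between the genotypes without Cre, Calca and Rab3b had -2.12 and -0.75, not called. The giant active zone gene Pclo (15.7 kb) had -0.81 as tested and -0.45 (adjusted p = 0.12) with the trend removed, and Akap6 (10.3 kb) -0.57 and -0.28 (adjusted p = 0.35).

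The lengths themselves were compared next. An exchange of isoforms of different length would appear as a change in this length. Of 6672 genes with a mean of at least 5 CPM and a length that varied, limma called 0 (368 at an unadjusted p under 0.05). The smallest p belonged to Tdrd7, an RNA granule protein, at 1.24 ± 0.18 kb in C201R and 1.89 ± 0.17 kb in WT (SD, n = 6), with an adjusted limma p of 0.46. Ccnl2, a cyclin linked to splicing, had 3.8 ± 0.43 and 3.08 ± 0.38 kb (SD), and it was not called. The median shift was -0.01 on the log2 scale, and 62.7% of the genes had a shorter length in C201R.

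The consistency of the 12 libraries was read from genes called without the library in question. Each left-out library was placed for each such gene on a line from the WT mean (0) to the C201R mean (1) of the other libraries. On higher genes of the stress lists all 12 libraries lay nearer their own group: median positions were 0.78 to 1.17 in the C201R libraries and -0.08 to 0.04 in the WT libraries. On higher genes outside the stress lists C201R mice 14004-2 and 14004-5 had positions of 0.42 and 0.36, nearer to WT, while the other 4 C201R libraries had 1.04 to 1.33. WT mouse 14701-9 had 0.55 there and the other 5 WT libraries -0.09 to 0.10.

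On lower genes the split was wider. WT mouse 14701-9 had a median position of 0.94, and for only 19.2% of the 406 genes called lower without it was it nearer to WT. C201R mice 14004-2 and 14004-5 had positions of 0.53 and 0.51, about halfway (0.53 and 0.50 with the scaling taken over the genes kept without the library), and the other 4 C201R libraries 0.89 to 1.66. In 14701-9 the position was 0.97 for the lower genes of the longest group and 0.83 for those of the 3 shorter length groups. Taking out the difference between the series, a step chosen after seeing the data, placed 14701-9 nearer to WT for 35.7% of the lower genes and C201R mouse 14701-5 nearer to C201R for 49.7%. It placed C201R mouse 14004-2 nearer to C201R for 79.1% of the higher and 80.8% of the lower genes, and 14004-5 for 70.1% and 70.8%. Without that step these shares were 52.2% and 54.1% in 14004-2 and 47% and 49.7% in 14004-5. Both mice belong to series 2, and with either left out the other still entered the estimate of the series difference. C201R mouse 14703-4 is also in series 2, but its Gm26924 share was 20.9%. Its positions were 1.02 on stress list genes, 1.04 on other higher genes and 0.89 on lower genes. Mice 14004-2 and 14004-5 share a low Gm26924 share and also the prefix of their numbers. The part of series, Gm26924 share and prefix was not tested.

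**Figure D5:**
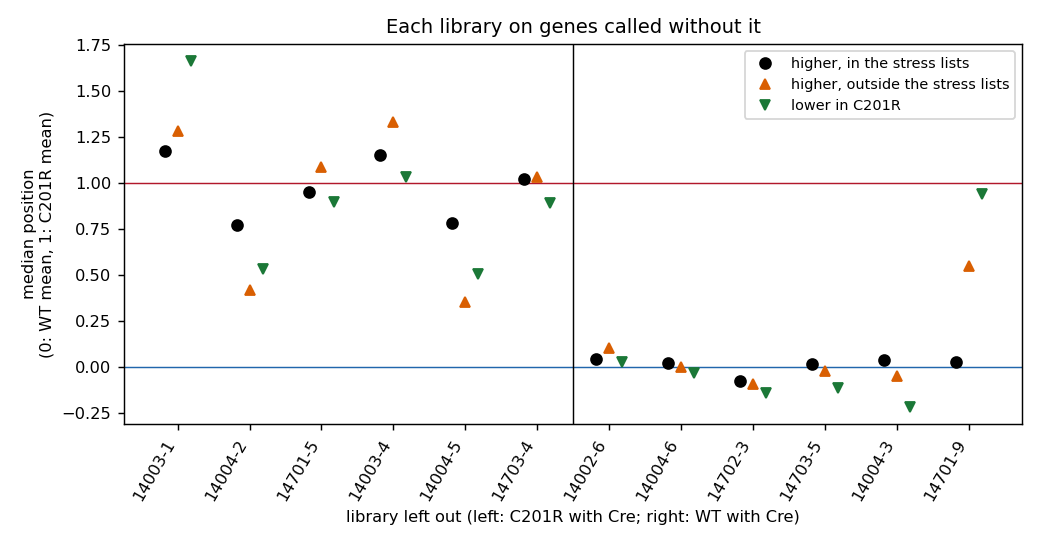
Median position of each library with Cre on genes called without it, where 0 is the mean of the other WT libraries and 1 that of the other C201R libraries, for higher genes in the stress lists (circles), other higher genes (upward triangles) and lower genes (downward triangles). Mouse 14701-9 lies at 0.03, 0.55 and 0.94, and mice 14004-2 and 14004-5 lie below 0.80 in all 3.

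Series 2 and series 1 share no library, so one can be read against the other. In series 2 alone edgeR called 548 genes higher and 822 lower of 15278 tested (3.59% and 5.38%). In series 1, whose libraries had no part in the call, 492 of the 539 measured higher genes had the same sign (91.3%, against 51.6% of all genes) and 752 of the 816 lower genes (92.2%, against 48.4%). The 3 C201R libraries of series 1 lay all above the 2 WT ones for 316 of the higher genes (58.6%, all genes 10.9%) and all below for 244 of the lower genes (29.9%, all genes 10.1%). Median log2 changes were 0.75 in series 2 and 0.80 in series 1 for higher genes, and -0.63 and -0.55 for lower genes. With the trend with length removed in both series, 90.3% of the higher and 84.7% of the lower genes had the same sign, against 55.7% and 44.3% of all genes. A test of whether the genotype change differed between the series called 0 of 14634 genes by edgeR (786 at an unadjusted p under 0.05). Series 1, with 3 against 2 libraries, gave 1 call alone, so this test had little power to find a difference.

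All 335 higher and all 266 lower genes had the same sign within each series, which the call itself used. In 175 of the higher (52.24%) and 102 of the lower genes (38.35%) the 6 C201R and 6 WT libraries did not overlap, against 1.72% and 1.34% of all genes tested. The call used these same libraries, so a larger share is built in. In all 12 fits without 1 library 107 of the higher and 55 of the lower genes were called. The change was at least 2-fold in 116 higher and 83 lower genes. Without Cre, 168 of 309 measured higher genes and 190 of 261 measured lower genes had the same sign between the genotypes. Their median log2 changes there were 0.04 and -0.15, against -0.04 over all 13333 tested genes measured without Cre. Negative signs were thus somewhat favoured over all genes, but their share was not counted. The lower genes had a median further below 0 than all genes.

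Genes beside Gars on its chromosome were read separately. Of the 25 protein-coding genes on each side in the RefSeq order, 33 were tested, and 1 was higher (Adcyap1r1, the receptor of the neuropeptide PACAP, 0.44 ± 0.11, edgeR adjusted p = 0.042) and 1 lower (Pde1c, -1.18 ± 0.19), with a median log2 change of 0.13. Over all genes tested 2.29% were higher and 1.82% lower, so 1 of 33 each way is near the share over all genes. Adcyap1r1 was called in 1 of 12 fits without 1 library.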

How the data were processed

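Each file holds RSEM expected counts per gene as deposited by the authors, with RSEM's length columns in bases. Per the submitters' processing notes the tools were Bowtie2 2.2.0 and RSEM 1.2.12. The genome build and annotation are not given in the sources used here. Expected counts were rounded to whole numbers. RSEM divides reads shared by near-identical genes, so paralogs and pseudogene parents are uncertain, and strand use is not stated, so overlapping genes cannot be told apart. Promoter windows come from RefSeq on GRCm38.p6, matched by symbol.

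Low counts were removed by filterByExpr and scaling was by TMM. The test was that of edgeR 4.0.16 (robust quasi-likelihood F test, terms for library series and genotype) on the 12 libraries with Cre. SE is the log2 change over the square root of F. Log2 CPM used a prior count of 2. Isoform-weighted lengths were tested with limma 3.58.1, and single library measures by exact two-sided permutation. The length trend was removed by a lowess fit per library (span 0.3) used as offsets. The fits were checked on simulated counts. Libraries held 12.1 to 28.3 M expected counts, which sets the counting error, and intervals from counts cover counting error only, since PCR copies are not independent.

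Named genes were the 15 higher (outside the stress lists) and 20 lower genes of lowest p whose mean reached 2 CPM, the 8 largest changes each way, up to 5 called genes per list (or the 2 most abundant), Gars, Chat and Rpl22, the 5 called genes with the smallest p in the longest and shortest of 5 length groups, the 5 with the smallest p for length, and called neighbours of Gars. Predicted genes, pseudogenes, small RNAs, Xist, Tsix and Y-linked genes were left out. All other called list members named here were chosen after their values were seen. The members and the 82 gene lists were chosen with earlier results of these data known. Some called list members are counted but not reported here by name. Alternatives used DESeq2 1.42.0, limma-voom, other scalings, filters, terms and libraries.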

Additional observations from a re-analysis of the deposited data

Results flagged for a closer look

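In each group of 6 libraries the highest and lowest library was compared with its nearest neighbour. A gap whose share of the group's range is above Dixon's 95% critical value marks a library as far from the others, and chance alone marks about 1 in 20 groups. Of 64 groups examined (29 genes whose values were read library by library, the length measure and the left-out placement), 11 had such a library, and in 9 of these it was WT mouse 14701-9.

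On genes called without it, 14701-9 was nearer to WT for 51.2% of the higher and 19.2% of the lower genes, far from the other 5 WT libraries. It stood apart among the WT libraries with 1.17 CPM for Cox6a2 and 39.4 CPM for Tceal8, a member of the TCEAL family, both higher than in the other WT mice. It had the lowest WT value, with a wide gap, for Cd55 (62.5 CPM), Dclk1 (343 CPM), Chodl (307 CPM), Sphkap (48.4 CPM) and Ahnak2 (586 CPM). Its mitochondrial share of 17.1% and Gm26924 share of 30.8% were measured beside these values, and their part was not tested in this library alone. The other 2 cases were Slitrk4 in C201R mouse 14003-4 (61.4 CPM) and Tra2a in WT mouse 14703-5 (31.4 CPM), each the lowest of its group.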

How the results depend on the processing

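The number of called genes (601, 55.7% of them higher) was within 1.5 times of that with RLE scaling, with TMM without mitochondrial genes and Gm26924, under both other filters, with the length trend removed and without C201R mice 14004-2 and 14004-5 (355 higher, 173 lower). It was 32 with library totals (24 higher, 8 lower), where the median of all genes moved to -0.26, 1344 with DESeq2, 2004 with limma-voom (904 higher, 1100 lower), 291 without the series term, 122 with the Gm26924 share as a term (89 higher, 33 lower), 335 with the Xist level as a term, 67 with the library's length measure as a term (54 higher, 13 lower), 1370 in series 2 alone (548 higher, 822 lower), 1 in series 1 alone, 1950 without mice 14003-1 and 14701-9, and 178 with all 24 libraries in one fit. Apart from what fewer libraries bring, the cause was not tested.

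Without 1 library the number ran from 170 (without C201R mouse 14703-4) to 936 (without C201R mouse 14003-1). It also moved by over 1.5 times without C201R mice 14004-2 (395) or 14003-4 (380) and without WT mice 14002-6 (219), 14004-6 (313), 14702-3 (253), 14703-5 (349) or 14004-3 (246). No called gene named by the rule changed direction in any of these fits. Of 174 such genes 66 were called in all 12 fits without 1 library.

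The length difference of -0.49 lost its threshold in series 2 alone (-0.26), in series 1 alone (-0.58) and in 9 of 12 fits without 1 library, whose values ran from -0.59 to -0.36. It stayed past it under the other length bins, filters, priors and gene sets. The number of genes with a shifted isoform length was 0 to 1 without 1 library. The series 2 count of 1370 ran from 713 to 1624 without 1 of its libraries, and was 823, 882 and 713 without WT mice 14702-3, 14703-5 and 14004-3. Of 24 placements of a left-out library (12 libraries, higher and lower genes), 21 were nearer the own group for most genes with TMM.

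A replicate block on the prefix of the mouse numbers left 75 calls (60 higher, 15 lower) and a length difference of -0.19, whose exact permutation p of 0.083 is the smallest that design allows. The labels do not say what the prefix stands for. Among the 6 pairs of opposite genotype that share a prefix, correlations of deviations from the genotype means ran from -0.02 to 0.40 (median 0.12, against 0.07 in 12 other pairs of one series) and 4 of 6 exceeded 0.1. With the series difference also removed they ran from -0.28 to -0.06 and 0 exceeded 0.1. Their median was then -0.20, against -0.15 in the 12 other pairs of one series. The main fit holds terms for library series and genotype and none for the prefix. Whether the prefix is a pairing cannot be told from these values. If it is, the fit with the block and its 75 calls would apply.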
